A study of Arabidopsis thaliana with 18 samples.

Results

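Genes for 7 transporters of the hormone abscisic acid (ABA) in Arabidopsis thaliana were followed by mRNA sequencing in seedlings with and without ABA. They are ABCG25, ABCG40, ABCG22, ABCG30, ABCG31, NPF4.6 and DTX50, chosen by locus as the 7 listed members among the 32399 loci counted. All 7 passed the filter on low counts over the 18 libraries together and were tested. The libraries came from whole seedlings of wild type and of ros1-3 and ros1-4, which are mutant alleles of ROS1, a DNA glycosylase that removes methylated cytosine from DNA. Seedlings aged 12 d spent 6 h submerged at 22 °C in water that held either 50 µM ABA or its solvent (mock). The resulting 6 groups, 3 genotypes by 2 treatments, have 3 libraries each, and every library pooled 5 plants. All seedlings, mock included, were therefore submerged, and separate growth or treatment of the pools is not stated in the sources used here, so p-values measure the spread between these libraries.

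ABA is made largely in vascular tissue and acts in other cells, among them the guard cells that close stomata, so it has to cross membranes on its way. Exporters release it from the cells that make it or hold it, importers carry it into the cells that respond, and receptors inside the cell then start the response. ABCG proteins are ATP-binding cassette transporters of the plasma membrane, the NPF family also carries nitrate and peptides, and DTX proteins are efflux carriers of the MATE type.

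The DNA just upstream of these genes was read, since the binding site of ABA-regulated bZIP factors, the ABA response element, has the core ACGTG. A window of 250 bases before and 50 bases after the annotated gene start was searched for ACGTG on both strands. The window of ABCG25 held 4 matches, of which 2 overlap as the palindrome CACGTG, and that of ABCG40 held 1. ABCG22, ABCG30, ABCG31, NPF4.6 and DTX50 had none in this window. Of 27443 protein-coding genes on the nuclear chromosomes, 26.7% had the core in the same window, as did 28.1% of the 15596 that were tested and 40.8% of the 3123 that were higher with ABA in wild type. The 4 windows shown are those of the 2 members with a match, of the member with the largest rise and of the member with the highest level in mock, in TAIR10.1 coordinates, 5′ to 3′ on the strand of the gene. Capitals mark the matches to the core.
ABCG25, chr1:27088199-27088498, minus strand: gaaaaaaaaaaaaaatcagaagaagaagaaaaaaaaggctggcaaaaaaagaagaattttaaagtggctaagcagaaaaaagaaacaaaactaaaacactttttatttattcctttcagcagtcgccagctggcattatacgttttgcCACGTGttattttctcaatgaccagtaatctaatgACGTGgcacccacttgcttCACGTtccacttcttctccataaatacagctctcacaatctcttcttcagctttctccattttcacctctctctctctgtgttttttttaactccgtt
ABCG40, chr1:5338277-5338576, minus strand: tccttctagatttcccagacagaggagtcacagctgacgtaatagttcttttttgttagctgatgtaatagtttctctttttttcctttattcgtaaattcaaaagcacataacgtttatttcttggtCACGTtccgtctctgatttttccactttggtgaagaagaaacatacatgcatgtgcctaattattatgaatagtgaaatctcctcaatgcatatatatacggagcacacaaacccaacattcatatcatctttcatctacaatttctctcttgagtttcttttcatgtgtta
DTX50, chr5:21138453-21138752, plus strand: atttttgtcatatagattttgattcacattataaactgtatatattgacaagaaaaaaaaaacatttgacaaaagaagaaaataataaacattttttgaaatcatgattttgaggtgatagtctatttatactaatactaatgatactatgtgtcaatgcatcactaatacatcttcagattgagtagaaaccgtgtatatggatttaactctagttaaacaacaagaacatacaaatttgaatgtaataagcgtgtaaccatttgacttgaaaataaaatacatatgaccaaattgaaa
NPF4.6, chr1:26300635-26300934, minus strand: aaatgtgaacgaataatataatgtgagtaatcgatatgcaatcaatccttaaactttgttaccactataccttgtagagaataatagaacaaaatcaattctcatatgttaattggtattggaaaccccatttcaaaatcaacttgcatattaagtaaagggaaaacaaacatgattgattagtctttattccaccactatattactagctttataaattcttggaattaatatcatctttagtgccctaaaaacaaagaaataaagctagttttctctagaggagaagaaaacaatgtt
In ABCG25 the matches begin 102, 101, 67 and 48 bases before the gene start, and in ABCG40 the match begins 122 bases before it. A match describes the letters only, and no binding was measured here.

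Counted reads per library ranged from 3304038 to 10275773. Reads shared by several transcript models, of the same locus or of overlapping loci, were set aside by the counting as ambiguous. They made 32.1% to 33.2% of ambiguous and counted reads together. This bears on ABCG22, the 1 member with 3 models, and can bear on ABCG30, which overlaps a neighbour. Levels are CPM, counts relative to the counted reads of each library and scaled between libraries by TMM (trimmed mean of M values). ROS1 itself served as a check of the genotype labels. Its mock level was 87.8 ± 6.17 CPM for wild type, against 54.1 ± 3.30 CPM for ros1-3 and 34.5 ± 3.57 CPM for ros1-4 (SD, n = 3). With ABA the ROS1 values were 108 ± 11.9, 53.9 ± 5.82 and 40.7 ± 6.198 CPM. ROS1 was lower in both alleles under both treatments (adjusted p at most 0.00102, edgeR's quasi-likelihood test), and reads of the locus remained in both.

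With ABA, 5 of the 7 transporters rose and NPF4.6 fell in all 3 genotypes, while ABCG31 fell in wild type and ros1-4. The threshold for a call was 0.05 on edgeR's p after Benjamini-Hochberg adjustment over all 15853 genes tested. The filter on low counts used mock and ABA libraries together. In fits of only the mock libraries of an allele and wild type, ABCG22 and ABCG40 fell below it, as did DTX50 in the ros1-4 fit. Among all genes 38.5% were called in wild type, 20% higher and 18.5% lower, against 5 members higher and 2 lower. In ros1-3, 38.2% of genes were called, 19.7% higher and 18.5% lower, against 5 members higher, 1 lower and 1 not called. In ros1-4, 38.2% of genes were called, 19.8% higher and 18.4% lower, against 5 members higher and 2 lower. The median log2 fold change of the 7 members was 1.66 for wild type, 1.47 for ros1-3 and 1.22 for ros1-4, against -0.01, -0.02 and -0.01 over all genes tested. In these whole seedlings a change in RNA per cell and a change in the share of cells that hold the RNA cannot be told apart.

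**Figure D1:**
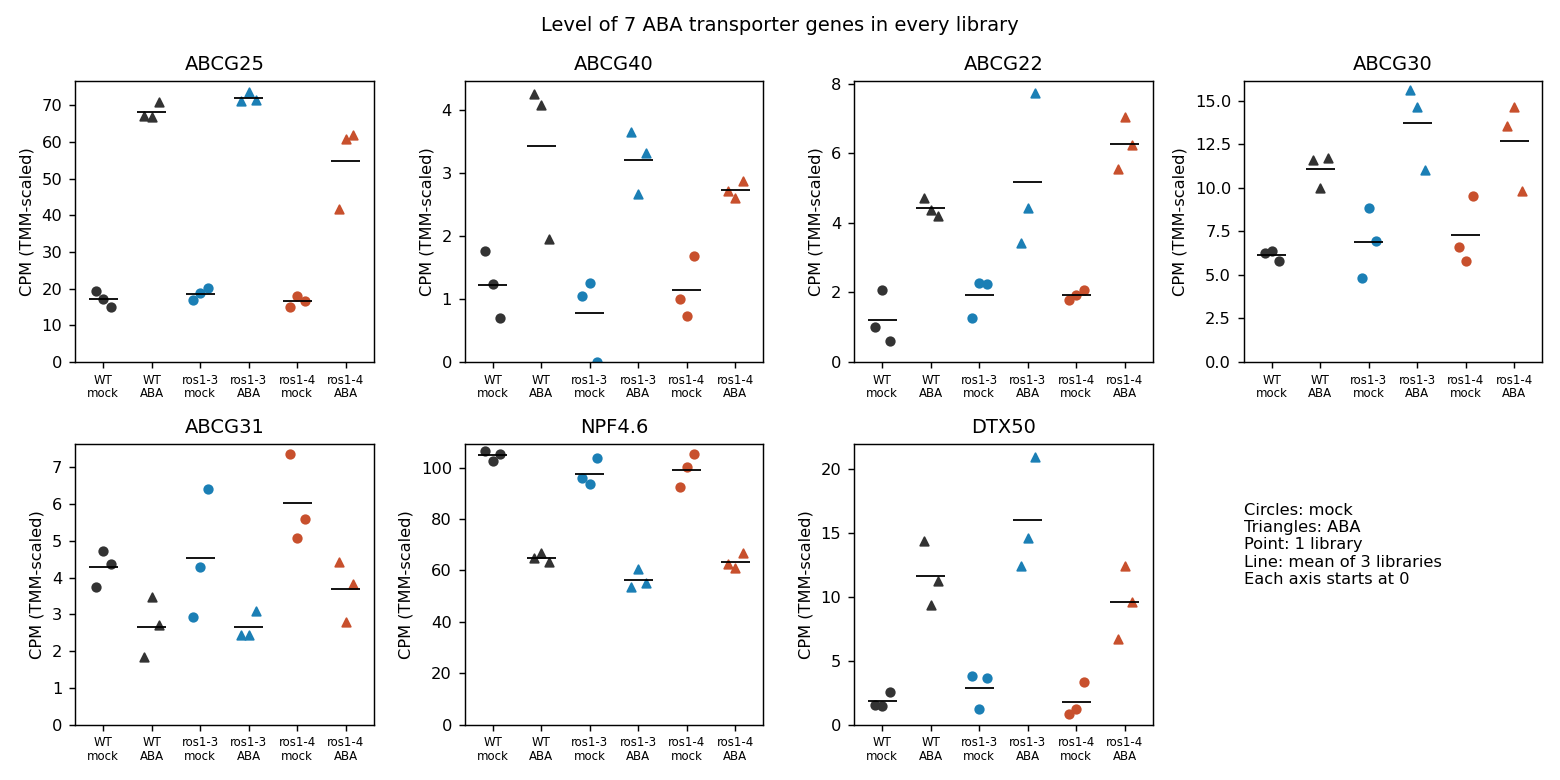
Level of each transporter in every library, in CPM on an axis that starts at 0, by group (WT, wild type), with circles for mock libraries, triangles for ABA libraries and lines for the mean of 3 libraries. ABCG25 lies at 15.1 to 20.1 CPM in the mock libraries and at 41.6 to 73.7 with ABA, and NPF4.6 goes the other way.

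Among the exporters, ABCG25 (AT1G71960, chromosome 1, 27082394 to 27088248, minus strand) carries ABA out of cells of the vascular tissue. In wild type its level was 19.3, 17.3 and 15.1 CPM in mock and 67.2, 66.7 and 70.9 CPM with ABA. In ros1-3 the ABCG25 level was 17.01, 18.9 and 20.1 CPM in mock and 71.1, 73.7 and 71.5 CPM with ABA. In ros1-4 the ABCG25 level was 14.9, 17.9 and 16.6 CPM in mock and 41.6, 60.8 and 62.0 CPM with ABA. Every ABA library lay above every mock library, and the lowest of the ABA values was that of ros1-4 replicate 1. ABCG25 rose 4.05-fold in wild type, or 2.02 ± 0.13 (SE) on the log2 scale (edgeR adjusted p = 2.913e-11). The rise was 3.88-fold in ros1-3 (log2 1.96, SE 0.14, edgeR adjusted p = 1.374e-10) and 3.33-fold in ros1-4 (log2 1.73, SE 0.13, edgeR adjusted p = 9.447e-10). These were the smallest standard errors among the members that rose, and ABCG25 had the most reads of those, 4366 over the 18 libraries.

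DTX50 (AT5G52050, chromosome 5, 21138703 to 21140876, plus strand) is a MATE carrier that exports ABA. In wild type it was at 1.502, 1.44 and 2.59 CPM in mock and at 14.3, 9.36 and 11.2 CPM with ABA. In ros1-3 the DTX50 values were 3.78, 1.26 and 3.62 CPM in mock and 12.4, 14.6 and 21.0 CPM with ABA. In ros1-4 the DTX50 values were 0.796, 1.21 and 3.36 CPM in mock and 6.70, 12.4 and 9.59 CPM with ABA. No mock library reached the lowest ABA library, and the mock values rest on 4 to 26 reads per library. DTX50 had the largest rise of the 7 members in each genotype, 5.76-fold for wild type seedlings (log2 2.53 with SE 0.35, edgeR adjusted p = 5.566e-06). The fold was 5.48 in ros1-3 (log2 2.45, SE 0.36, edgeR adjusted p = 1.235e-05) and 5.05 in ros1-4 (log2 2.34, SE 0.40, edgeR adjusted p = 6.456e-05). Without the third ros1-4 mock library, the highest of its group, the ros1-4 value became 3.24 on the log2 scale.

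ABCG31 (AT2G29940, chromosome 2, 12759973 to 12766794, plus strand) exports ABA from the endosperm of the seed to the embryo. In wild type its level was 3.75, 4.73 and 4.38 CPM in mock and 1.84, 3.47 and 2.70 CPM with ABA. In ros1-3 it was 2.94, 4.28 and 6.41 CPM in mock and 2.44, 2.44 and 3.09 CPM with ABA, and the groups overlapped. In ros1-4 it was 7.37, 5.09 and 5.61 CPM in mock and 4.42, 2.78 and 3.84 CPM with ABA. ABCG31 was the 1 exporter that fell, by 0.72 on the log2 scale in wild type (SE 0.28, edgeR adjusted p = 0.04839) and by 0.69 in ros1-4 (SE 0.26, edgeR adjusted p = 0.04253). In ros1-3 the log2 fold change was -0.73 (SE 0.33, edgeR adjusted p = 0.08854), which did not pass. The calls lie close to the threshold: under 14 other settings the wild type call was lost in 11 and the ros1-4 call in 8. Over the range of those settings the adjusted p of ABCG31 ran from 0.0247 to 0.241 in wild type.

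Among the importers, NPF4.6 (AT1G69850, also NRT1.2 or AIT1, chromosome 1, 26296540 to 26300684, minus strand) takes up ABA and also nitrate. In wild type its level was 107, 103 and 105 CPM in mock and 64.8, 66.9 and 63.1 CPM with ABA. In ros1-3 the NPF4.6 level was 96.0, 93.4 and 104 CPM in mock and 53.6, 60.4 and 55.0 CPM with ABA. In ros1-4 the NPF4.6 level was 92.4, 100.1 and 105 CPM in mock and 62.3, 61.0 and 66.6 CPM with ABA. Every mock library lay above every ABA library, from 92.4 CPM upward against 66.9 CPM downward. NPF4.6 fell by 0.69 on the log2 scale in wild type (SE 0.08, edgeR adjusted p = 1.702e-07), a level 1.61-fold lower with ABA. It fell by 0.79 in ros1-3 (SE 0.08, edgeR adjusted p = 6.3e-08) and by 0.65 in ros1-4 (SE 0.08, edgeR adjusted p = 6.454e-07).

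ABCG40 (AT1G15520, chromosome 1, 5331858 to 5338326, minus strand) imports ABA into guard cells. Its level was 1.75, 1.23 and 0.696 CPM in wild type mock and 4.24, 4.08 and 1.95 CPM with ABA. In ros1-3 it was 1.05, 1.26 and 0 CPM in mock and 3.65, 2.66 and 3.31 CPM with ABA. In ros1-4 it was 0.996, 0.727 and 1.68 CPM in mock and 2.71, 2.60 and 2.88 CPM with ABA. Here too the lowest ABA library lay above the highest mock library, although this was the member with the fewest reads, 223 in all. The library at 0 allows up to 0.836 CPM, the worth of 3 counts at its depth, a limit of counting error only. ABCG40 rose by a log2 fold change of 1.66 in wild type (SE 0.42, edgeR adjusted p = 0.003002), 1.95 in ros1-3 (SE 0.53, edgeR adjusted p = 0.005455) and 1.22 in ros1-4 (SE 0.45, edgeR adjusted p = 0.03819). The ros1-4 call was lost in 6 of 14 other settings, and over all 14 the adjusted p ran from 0.019 to 0.128 and the log2 fold change from 1.01 to 1.63.

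ABCG30 (AT4G15230, chromosome 4, 8679754 to 8687519, plus strand) imports ABA into the embryo. Its level was 5.77 to 6.37 CPM in wild type mock and 9.96 to 11.7 CPM with ABA, 4.83 to 8.81 and 11.04 to 15.6 CPM in ros1-3, and 5.82 to 9.53 and 9.83 to 14.7 CPM in ros1-4. The ABA libraries were above the mock libraries in each genotype, with the narrowest gap in ros1-4. It rose the least of the 5 that rose, by a log2 fold change of 0.87 in wild type (SE 0.21, edgeR adjusted p = 0.002254), 1.01 in ros1-3 (SE 0.23, edgeR adjusted p = 0.001252) and 0.76 in ros1-4 (SE 0.21, edgeR adjusted p = 0.00678). The gene overlaps its tandem neighbour ABCG42 (AT4G15233) by 166 bases on the same strand, and how reads there were assigned was not tested, so its level is uncertain to that extent. ABCG42 went the opposite way: it fell from a mean of 2.66 to 0.706 CPM in wild type (log2 -1.86, edgeR adjusted p = 0.001362) and by 2.36 and 1.61 on the log2 scale in ros1-3 and ros1-4 (edgeR adjusted p = 0.001151 and 0.003767). ABCG41, in the same cluster, fell in ros1-3 (log2 -1.27, edgeR adjusted p = 0.007341), and its values of -0.39 in wild type and -0.39 in ros1-4 did not pass.

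ABCG22 (AT5G06530, chromosome 5, 1989650 to 1994961, minus strand) is known for its part in closing stomata, and its substrate is less settled than those of the others. Its level was 0.597 to 2.05 CPM in wild type mock and 4.196 to 4.70 CPM with ABA, 1.26 to 2.27 and 3.41 to 7.73 CPM in ros1-3, and 1.79 to 2.06 and 5.56 to 7.05 CPM in ros1-4. Again the treatments did not overlap in any genotype. ABCG22 rose by a log2 fold change of 2.01 in wild type (SE 0.36, edgeR adjusted p = 0.0001151), 1.47 in ros1-3 (SE 0.37, edgeR adjusted p = 0.002954) and 1.68 in ros1-4 (SE 0.32, edgeR adjusted p = 0.0002677). These values use only reads that fit 1 of its 3 models, and 1 of the models had no read in any library.

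In wild type 7 of 7 members had no overlap between the 3 mock and the 3 ABA libraries, 5 higher and 2 lower, against 49% of all genes tested, 24.8% higher and 24.2% lower. In ros1-3 5 were higher and 1 lower against 48.9% of all genes, 24.4% higher and 24.5% lower. In ros1-4 5 were higher and 2 lower against 47%, 24.2% higher and 22.8% lower. Over all genotypes together, 6 of the 7 had no overlap between the 9 mock and the 9 ABA libraries, against 21.8% of all genes tested, and ABCG31 was the exception.

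**Figure D2:**
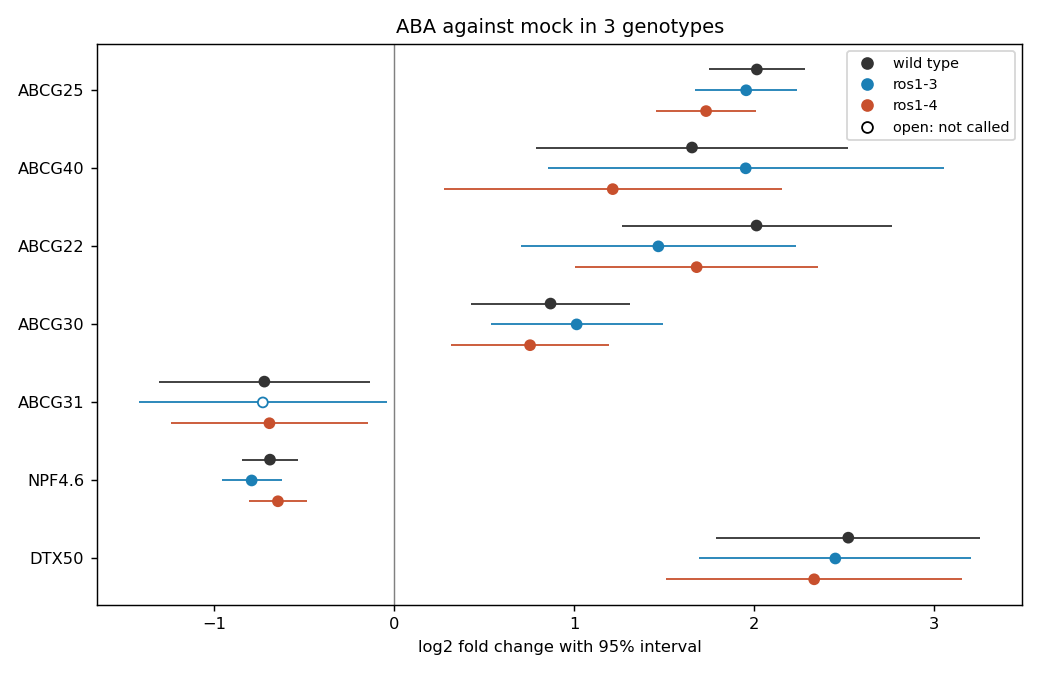
Log2 fold change of ABA against mock for each transporter in wild type, ros1-3 and ros1-4, with bars for the 95% interval from edgeR and a line at 0, filled points being called. DTX50, ABCG25, ABCG22, ABCG40 and ABCG30 lie to the right of 0 in each genotype, and NPF4.6 and ABCG31 to the left.

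Levels of different genes can be compared only per length, so CPM was divided by the exon length of each gene. In wild type mock the order of mean CPM per kb was NPF4.6 at 42.9, ABCG25 at 7.59, ABCG30 at 1.20, ABCG31 at 0.895, DTX50 at 0.847, ABCG22 at 0.421 and ABCG40 at 0.269. The first 3 stood apart from the next in order, and from ABCG31 on each overlapped its neighbour. In wild type with ABA the order of mean CPM per kb became ABCG25 at 30.1, NPF4.6 at 26.6, DTX50 at 5.36, ABCG30 at 2.17, ABCG22 at 1.53, ABCG40 at 0.751 and ABCG31 at 0.557. Only ABCG40 and ABCG31 overlapped there. The ABCG22 level per kb is understated, for the reads its models share were not counted.

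ABCG25 and NPF4.6 thus changed places at the top with ABA in wild type. The ratio of ABCG25 to NPF4.6, both in CPM per kb, was 0.155 to 0.195 in the wild type mock libraries and 1.07 to 1.21 with ABA. In ros1-3 it went from 0.191 to 0.218 in mock up to 1.31 to 1.43 with ABA. In ros1-4 the mock ratios were 0.170 to 0.193 and the ABA ratios were 0.719, 1.07 and 1.001, so the ranges of the 2 genes overlapped in that group, where NPF4.6 averaged 26.0 and ABCG25 24.2 CPM per kb.

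As shares of the summed CPM per kb of the 7 members, NPF4.6 made 79.3% in wild type mock and 39.7% with ABA, and ABCG25 14.004% and 44.9%. DTX50 went from 1.57% to 7.97% of the sum. In ros1-3 the NPF4.6 share went from 76.0% to 34.0% and in ros1-4 from 77.7% to 43.2%. The known exporters ABCG25, ABCG31 and DTX50 together summed to a mean of 9.34 CPM per kb in wild type mock and 36.0 with ABA. The known importers among the 7, ABCG40, ABCG30 and NPF4.6, summed to 44.4 and 29.5 CPM per kb. These sums are led by ABCG25 and NPF4.6, the 2 most abundant members. ABCG40 and ABCG30 rose, so the fall of the importer sum is that of NPF4.6. The importer NPF5.1, outside the 7 and described below, rose and is not in the sum. In ros1-3 the exporters went from 10.5 to 39.7 and the importers from 41.6 to 26.5 CPM per kb, and in ros1-4 from 9.36 to 29.4 and from 42.3 to 29.0.

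**Figure D3:**
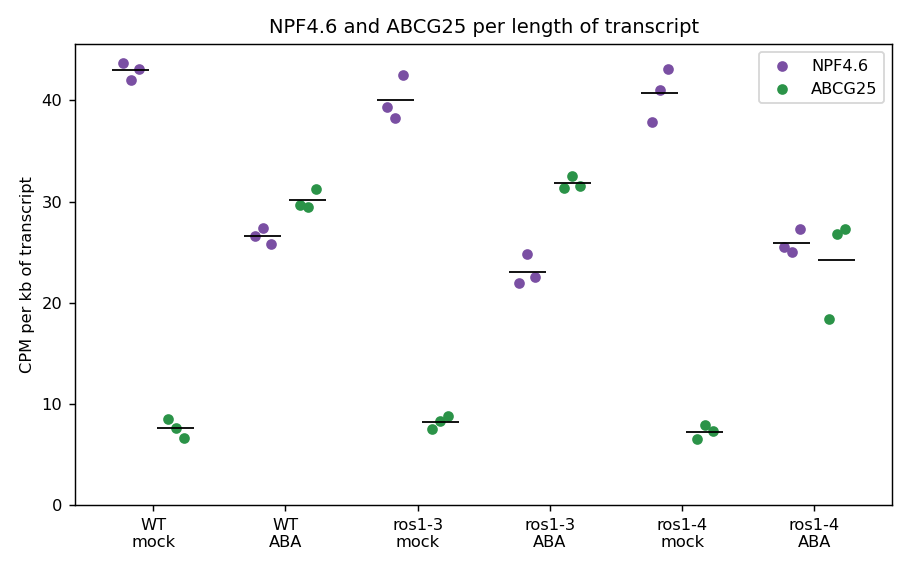
Level per exon length of NPF4.6 and ABCG25 in the 6 groups (WT, wild type), in CPM per kb on an axis that starts at 0, with points for libraries and lines for the mean of 3. NPF4.6 is far above ABCG25 in mock, and with ABA the mean of ABCG25 is 30.1 against 26.6 for NPF4.6 in wild type and the points overlap in ros1-4.

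No transporter was called between an allele and wild type. In mock 1.32% of all genes were called for ros1-3 and 0.448% for ros1-4, and with ABA 1.72% and 0.681%. The members called numbered 0 of 7 in each of these 4 comparisons by edgeR, and 0 by DESeq2. The mock counts include ABCG22 and ABCG40, and for ros1-4 DTX50, which fell below the filter in fits of mock libraries alone. At an unadjusted p under 0.05 the edgeR counts of members were 0 in both mock comparisons, 1 for ros1-3 with ABA and 1 for ros1-4 with ABA. The shares of all genes at that threshold were 12.2% and 6.91% in mock for ros1-3 and ros1-4, and 12.3% and 8.16% with ABA. The first was NPF4.6, whose log2 difference from wild type was -0.20 (SE 0.08, 95% interval -0.37 to -0.04, edgeR adjusted p = 0.2647). The second was ABCG25 in ros1-4, at -0.32 (SE 0.11, 95% interval -0.55 to -0.09, edgeR adjusted p = 0.3361), and without the first ros1-4 ABA library it was -0.15 (edgeR adjusted p = 0.7793).

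Some members had no overlap of libraries between an allele and wild type without passing the test. In ros1-4 mock this was ABCG31, higher by a log2 difference of 0.48 (95% interval -0.06 to 1.03). In ros1-3 mock ABCG31 was at 0.03 and the libraries overlapped. ABCG31 lies on the same chromosome as ROS1, and any part of that position in the difference was not tested. With ABA the members without overlap were ABCG25 at 0.08 and NPF4.6 at -0.20 in ros1-3, and ABCG25 at -0.32 and ABCG22 at 0.49 in ros1-4. Among all genes 16.6% had no overlap in ros1-3 mock (8.27% higher, 8.31% lower) and 11.6% in ros1-4 mock (5.78% higher, 5.87% lower). With ABA the shares were 19.3% in ros1-3 (9.23% higher, 10.1% lower) and, for ros1-4, 13.1% (6.33% higher, 6.76% lower). ABCG25 with ABA stood above wild type in ros1-3 and below it in ros1-4. Multiply aligned reads made 9.80% to 13.03% of the file totals in wild type mock and 3.46% to 4.62% in ros1-4 mock. Since these ranges do not overlap, a fit with this share as a covariate cannot separate it from genotype there. No member was called between an allele and wild type in that fit. The part of these reads in the differences was not otherwise tested.

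The intervals show what these libraries could tell. For NPF4.6 in mock the 95% interval of the log2 difference from wild type was -0.26 to 0.06 in ros1-3 and -0.23 to 0.08 in ros1-4. For ABCG25 in mock it was -0.18 to 0.46 and -0.36 to 0.29. ABCG40 was bounded far less, with a mock interval of -1.70 to 0.88 for ros1-3 and of -1.03 to 1.24 for ros1-4. ABCG22 had the highest mock differences, 0.78 in ros1-3 (95% interval -0.19 to 1.75) and 0.82 in ros1-4 (95% interval -0.11 to 1.75), over group means of 1.22 CPM for wild type, 1.92 CPM for ros1-3 and 1.93 CPM for ros1-4. Under the other settings run these ABCG22 differences went from 0.25 to 1.36 in ros1-3 and from 0.29 to 1.40 in ros1-4, and none was called.

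**Figure D4:**
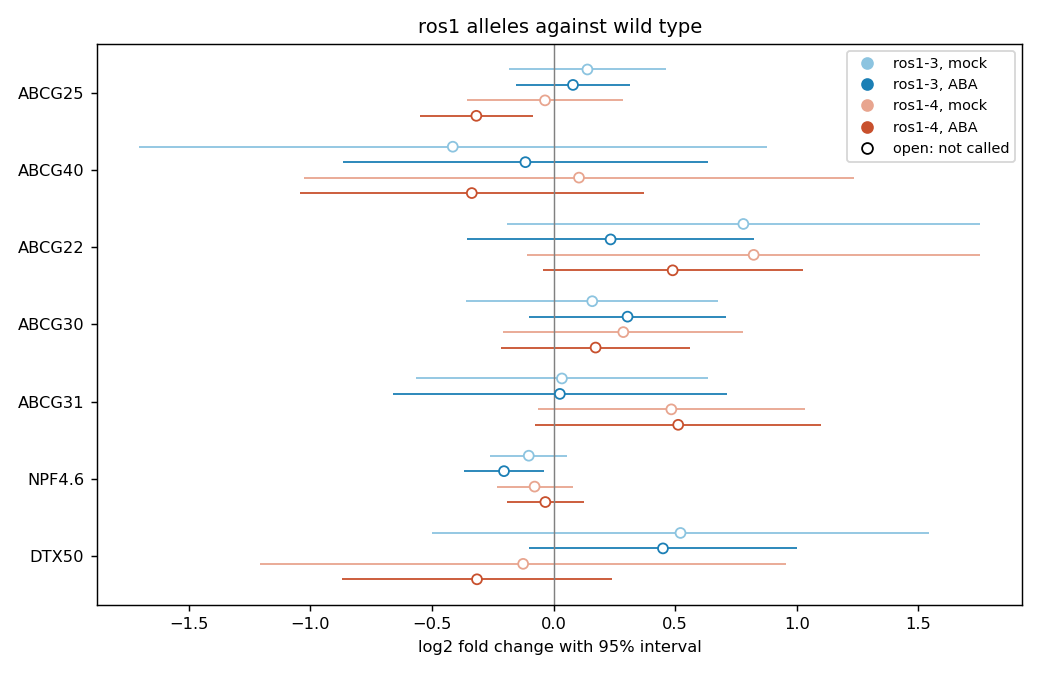
Log2 difference of ros1-3 and ros1-4 from wild type for each transporter, in mock and with ABA, with bars for the 95% interval from edgeR and a line at 0, open points being uncalled. The intervals of NPF4.6 and ABCG25 are the narrowest, and only ABCG25 in ros1-4 and NPF4.6 in ros1-3, both with ABA, have intervals that leave out 0 before adjustment.

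Whether the ABA response itself differed between an allele and wild type was tested as an interaction. No member was called for either allele, and 0% of all genes were called by edgeR, with 743 and 521 genes (4.69% and 3.29%) at an unadjusted p under 0.05 and none of the members among them. DESeq2 called 11 and 1 genes, none of them a member. The difference of the ABCG25 response from wild type was -0.06 in ros1-3 (95% interval -0.46 to 0.34) and -0.28 in ros1-4 (95% interval -0.68 to 0.11), on the log2 scale. For NPF4.6 the difference was -0.10 (95% interval -0.33 to 0.13) and 0.04 (95% interval -0.18 to 0.27). DTX50 was less well bounded, at -0.07 (95% interval -1.18 to 1.03) and -0.19 (95% interval -1.43 to 1.05). The widest intervals were those of ABCG40, -1.19 to 1.78 in ros1-3 and -1.79 to 0.91 in ros1-4.

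Other genes of ABA transport and of the same families were set beside the 7, from lists made for this purpose with earlier results of these data known. Of 6 further loci with reported ABA transport, 2 were tested. NPF5.1, an ABA importer, rose in wild type from a mean of 11.5 to 28.4 CPM (log2 1.26 with SE 0.17, edgeR adjusted p = 4.561e-06), and also in ros1-3 and ros1-4 at 1.23 and 0.92. ABCG18 was at a log2 fold change of 0.37 in wild type (edgeR adjusted p = 0.3755). NPF4.1, NPF4.2, NPF4.5 and ABCG17 had too few reads to test.

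The family lists hold only genes with a numbered ABCG, NPF or DTX name in the annotation, so they can be incomplete. Of 36 other ABCG genes 28 were tested in wild type, and 12 rose, 6 fell and 10 did not pass, with a median log2 fold change of 0.14. Among all genes 20% were called higher and 18.5% lower in wild type, as given above, with a median of -0.01. In ros1-3 the ABCG counts were 13, 7 and 8, and in ros1-4 11, 8 and 9, where 38.2% of all genes were called in each allele. The smallest p-values in wild type belonged to ABCG6 (log2 2.57, SE 0.17, edgeR adjusted p = 6.039e-11), ABCG16 (log2 2.30, SE 0.21, edgeR adjusted p = 8.797e-09) and ABCG1 (log2 2.28, SE 0.21, edgeR adjusted p = 1.017e-08). These proteins are known for their part in forming suberin and the pollen wall. Of 23 other NPF genes 22 were tested, and 9 rose, 5 fell and 8 did not pass in wild type, with a median of 0.15, beside the same 20% and 18.5% of all genes. NPF7.3, which loads nitrate and potassium into the xylem, fell by 2.43 on the log2 scale (SE 0.16, edgeR adjusted p = 4.904e-11), whereas NPF6.4 rose by 3.64 (SE 0.24, edgeR adjusted p = 5.337e-11) and NPF6.2 by 1.86 (SE 0.15, edgeR adjusted p = 1.129e-09). Only 2 other genes carried a DTX name there. DTX1 fell by 2.68 (SE 0.63, edgeR adjusted p = 0.001584) and DTX35 rose by 0.84 (SE 0.22, edgeR adjusted p = 0.003631).

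Genes that make and break down ABA moved with treatment as well. Of 9 genes of ABA synthesis, 6 were tested and 5 rose in wild type, where 20% of all genes rose, with a median log2 fold change of 1.56. Among them were NCED3, the enzyme that cleaves the carotenoid precursor under drought, at 1.997, NCED2 at 4.18 and ABA1, zeaxanthin epoxidase, at 1.68. Of 4 genes of ABA breakdown only CYP707A4, an ABA 8′-hydroxylase, was tested, and it rose by a log2 fold change of 4.204. CYP707A1 was listed at 0 in every library, and a locus with several models can lose its reads to the ambiguous row. None of the genes on these lists was called between an allele and wild type or as an interaction by edgeR.

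The genes whose pattern over the 6 group means was most like that of a transporter were found by the root mean square difference of centred log2 CPM, among 15315 genes with an average log2 CPM of at least 1. For ABCG25 these were AT4G18425, AT4G34320 and AT3G50400, at 0.08, 0.09 and 0.09. For DTX50 the nearest was AT2G25460 at 0.09, followed by RRTF1 at 0.16. For ABCG40 it was AT1G56320 at 0.10, for ABCG22 AT5G52760 at 0.12, for ABCG30 AT2G43550 at 0.05 and for ABCG31 the lipid transfer protein gene LTP5 at 0.07. The measure was not used for NPF4.6, whose group means spanned 0.89, under the minimum of 1. It describes 6 group means and carries no test.

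Markers of tissues in the seedlings also moved with ABA. The summed level of 4 root markers was 71.0 to 112 CPM in wild type mock and 16.6 to 19.8 CPM with ABA, 48.7 to 83.3 and 15.9 to 21.9 CPM in ros1-3, and 57.0 to 86.9 and 16.5 to 17.8 CPM in ros1-4. The 4 vascular markers summed to 411 to 494 CPM in wild type mock and 526 to 673 CPM with ABA, 336 to 471 and 514 to 591 CPM in ros1-3, and 378 to 436 and 536 to 551 CPM in ros1-4. Root marker sums were lower with ABA and vascular marker sums higher, with no overlap within a genotype. The vascular sum stands for the phloem genes SUC2 and SWEET12, since the means of APL and XCP1 were at most 0.265 CPM. SUC2 rose in wild type by a log2 fold change of 0.63 (edgeR adjusted p = 1.399e-05), and SWEET12 was at 0.21 (edgeR adjusted p = 0.2461). For 3 leaf markers the sums were 27592 to 32989 CPM in wild type mock and 35863 to 39932 with ABA, 25981 to 28006 against 31632 to 37542 in ros1-3, and 27306 to 34104 against 36180 to 40864 in ros1-4. That sum is led by LHCB1.3, which rose from a mean of 24854 to 33996 CPM in wild type, whereas RBCS1A and RCA were at log2 fold changes of -0.22 and -0.10 there and did not pass. RCA averaged only 8.17 CPM in wild type mock, and whether it lost reads to the ambiguous row was not tested. The 5 guard cell markers summed to 84.9 to 86.2 CPM in wild type mock and 58.6 to 73.5 with ABA, 72.6 to 104 against 78.7 to 87.9 in ros1-3, and 85.8 to 105 against 75.3 to 87.7 in ros1-4. They did not move alike: wild type means went from 8.19 to 3.00 CPM for MYB60 and from 10.4 to 12.3 CPM for SLAC1. Of the 5, 2 were called lower in wild type, 0 were called in ros1-3, and 1 was higher and 3 lower in ros1-4. Among all genes 38.5%, 38.2% and 38.2% were called. With ABA 1 of the 5 was called higher in ros1-3 than in wild type, where 1.72% of all genes were called. The part of these shifts in the values of ABCG25, NPF4.6 and the other members was not tested. Both pollen markers were at 0 in all libraries. The 4 seed markers summed to 0 to 2.59 CPM over the mock libraries and 0.713 to 3.75 CPM over the ABA libraries. In each group 2 to 4 of the 4 were at 0. CRU1 and CRU3 were at 0 throughout, and OLEO1 means were at most 0.944 CPM. EM1 had 0 reads in every mock group but appeared with ABA, averaging 1.61 CPM (wild type), 2.11 CPM (ros1-3) and 1.54 CPM (ros1-4). The seed sums with ABA overlapped the ABCG31 level with ABA, 1.84 to 4.42 CPM. They lay below that of ABCG30, 9.83 to 15.6 CPM. Any part of seed tissue in the ABCG30 and ABCG31 values was not tested.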

How the data were processed

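Messenger RNA was sequenced from 18 libraries of whole seedlings, and the authors deposited raw read counts per transcript model, 1 table per library. The submitters' processing notes name HTSeq 0.6.1, SAMtools, TopHat2 2.0.8 and Trim Galore 0.2.8, and TAIR10 as the build. The sources used here do not say whether counting used strand, and without it reads from antisense overlaps cannot be told apart. The 40466 models were summed into 32399 loci, of which 31912 matched the TAIR10.1 annotation. Rows naming no gene, 36.7% to 44.5% of each file, were left out. No 2 libraries of a group differed by less than sampling noise.

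Counts were fitted with edgeR 4.0.16 (R 4.3.3), with TMM and filterByExpr. There was 1 quasi-likelihood fit for the 18 libraries together, with 1 mean per group and 12 residual degrees of freedom. Benjamini-Hochberg adjustment ran over 15853 genes. The fit was first tried on simulated counts in which few genes were changed, in 1 group only. That trial does not cover a response as wide as the one to ABA. The approximate SE was the size of a log2 fold change over the root of its F statistic. DESeq2 1.42.0 was an alternative, beside other scalings, filters, model sums, a covariate, a replicate block and each library left out. The range of 3304038 to 10275773 counted reads limits the precision of low genes.

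The members, lists, markers and motif were chosen with earlier results of these data known. Named were the 7 members, ROS1 and, per member, up to 3 of the genes nearest in pattern. Up to 3 called genes per list with the smallest p in wild type with ABA were named as well. ABCG17, ABCG18, ABCG41, ABCG42, NPF4.1, NPF4.2, NPF4.5, CYP707A1 and the tissue markers were named after their values were seen. Exon lengths and promoter windows came from the RefSeq TAIR10.1 assembly and its annotation.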

Additional observations from a re-analysis of the deposited data

How the results depend on the processing

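Of 294 alternative values of the members' ABA responses, 267 kept their direction and side of the threshold, 26 lost the call, 1 gained it and 0 changed sign. The calls lost or gained were those of ABCG31 and ABCG40. In wild type the ABCG31 value ran from -0.95 to -0.48 (edgeR or DESeq2 adjusted p 0.0247 to 0.241) and in ros1-4 from -0.83 to -0.52 (0.0383 to 0.197), and in ros1-3 the call appeared without the first mock library (-0.98, edgeR adjusted p = 0.03146). ABCG40 in wild type was 1.37 (edgeR adjusted p = 0.06545) with the share of multiply aligned reads as a covariate. The members called ran from 5 to 7 in wild type, 6 to 7 in ros1-3 and 5 to 7 in ros1-4, and were 0 in all other comparisons under every setting run. No genotype or interaction value of a member was called under any setting, and with only the groups compared in the fit ABCG22 and ABCG40 in both mock comparisons of genotypes and DTX50 in that of ros1-4 had no value, being below the filter on low counts there.

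Replicate numbers did not pair the samples: of 45 same-numbered pairs of libraries from different groups, 1 had a correlation of deviations over 0.1 (median -0.0302), and in 13 of 45 the own number was the best match. With the replicate number as a block, 6 members were called in each genotype, ABCG31 being -0.70 in wild type (edgeR adjusted p = 0.07047) and -0.70 in ros1-4 (edgeR adjusted p = 0.05162), and 5864, 5904 and 5878 genes were called with ABA in wild type, ros1-3 and ros1-4 in place of 6102, 6052 and 6062. The block turned the ABCG31 interaction of ros1-4 to -9e-04.

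Counts of all genes moved more. For the interaction of ros1-3, 0 genes became 11 with DESeq2, 4 with the covariate, 16 with no filter and 0 to 6 with a library left out, and for ros1-4, 1 with DESeq2, 3 with no filter and 0 to 2 with a library left out. For ros1-3 against wild type in mock, 210 became 96 with the covariate, 333 with no filter and 105 to 285 with a library left out, and with ABA 273 became 138 to 302. For ros1-4 in mock, 71 became 11, 108 and 47 to 68, and with ABA 108 became 44, 202 and 65 to 104. The cause was not tested, other than that the unfiltered fits tested more genes.

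Small uncalled log2 differences changed sign. With the covariate, in mock, ABCG25 in ros1-4 became 0.16, ABCG40 in ros1-4 -0.49 and ABCG31 in ros1-3 -0.021, and the interactions became 0.028 for ABCG31 in ros1-3 and 0.090 and 0.062 for DTX50 in ros1-3 and ros1-4. With the model of most counts the ABCG22 interaction of ros1-3 became 0.040. With a library left out, the mock differences ran from -0.15 to 0.040 (ABCG25, ros1-4), -0.067 to 0.39 (ABCG30, ros1-3), -0.27 to 0.30 (ABCG31, ros1-3), -0.84 to 0.079 and -0.33 to 0.39 (ABCG40, ros1-3 and ros1-4) and -1.02 to 0.33 (DTX50, ros1-4). Those with ABA in ros1-3 ran from -0.17 to 0.45 (ABCG22), -0.21 to 0.26 (ABCG31) and -0.38 to 0.087 (ABCG40). The interactions of ros1-3 ran from -0.14 to 0.050 (ABCG25), -0.079 to 0.37 (ABCG30), -0.27 to 0.30 (ABCG31), -0.19 to 0.73 (ABCG40) and -0.53 to 0.22 (DTX50). Those of ros1-4 ran from -0.91 to 0.20 (ABCG22), -0.24 to 0.14 (ABCG30), -0.21 to 0.26 (ABCG31), -0.65 to 0.71 (DTX50) and -0.0056 to 0.092 (NPF4.6).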
